A study of Arabidopsis thaliana with 24 samples.

Results

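The genes examined were 10 loci at the end of the brassinosteroid pathway, which encode the BZR transcription factors (BZR1, BES1, BEH1, BEH2, BEH3 and BEH4) and 4 kinases and phosphatases upstream of them (BIN2, BSU1, BSL1 and BSK1). The genes were taken by locus identifier from the deposited table of raw read counts, and all 10 were found among its 33296 named rows. RNA-seq was run on primary root tips of Arabidopsis thaliana seedlings at 6 days. The genotypes were Col-0 (WT) and brl3-2, a single T-DNA line disrupted in BRL3. BRL3 encodes a relative of the brassinosteroid receptor BRI1. Seedlings of each genotype were kept for 2 h in DMSO (mock) or in zeocin, a bleomycin-type antibiotic that breaks DNA. The labels give 10 µM zeocin in 1 place and 2 µM in another, so no dose is attached to the values. Each of the 4 groups holds 3 biological replicates, which makes 12 libraries, each sequenced in 2 runs.

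Brassinosteroids are steroid hormones that are sensed at the cell surface. When no hormone is bound, the GSK3-like kinase BIN2 phosphorylates the BZR factors, which are then kept out of the nucleus and broken down. When hormone is bound, the receptor BRI1 phosphorylates BSK1, a membrane-anchored kinase, and the signal passes to phosphatases of the BSU1 family, to which BSL1 also belongs. These phosphatases inactivate BIN2, so that unphosphorylated BZR1 and BES1 gather in the nucleus, where they switch on growth genes and switch off genes of brassinosteroid synthesis. In the root tip this pathway is known for its part in meristem size and in divisions of the stem cell niche. Most of this control acts on proteins, whereas the values below are levels of transcripts.

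BZR1 and BES1 are known to bind the G-box (CACGTG) and the brassinosteroid response element (CGTGTG or CGTGCG). The 250 bases upstream of each annotated gene start in TAIR10.1 were therefore read, and 4 are printed 5′ to 3′ on the gene's own strand. They belong to the 4 BZR genes with the highest levels, among them BEH4, the 1 gene of the 10 that passed the test described below. Capitals mark a G-box or a response element on either strand. The windows are chr1:28185254-28185503 (plus strand) for BZR1, chr1:6688213-6688462 (plus strand) for BES1, chr4:17334356-17334605 (minus strand) for BEH2 and chr1:29599099-29599348 (plus strand) for BEH4.
BZR1: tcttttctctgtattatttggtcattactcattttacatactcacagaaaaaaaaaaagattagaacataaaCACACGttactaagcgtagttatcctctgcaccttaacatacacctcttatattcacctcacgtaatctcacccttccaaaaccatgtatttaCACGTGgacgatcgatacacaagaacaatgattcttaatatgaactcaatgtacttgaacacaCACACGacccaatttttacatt
BES1: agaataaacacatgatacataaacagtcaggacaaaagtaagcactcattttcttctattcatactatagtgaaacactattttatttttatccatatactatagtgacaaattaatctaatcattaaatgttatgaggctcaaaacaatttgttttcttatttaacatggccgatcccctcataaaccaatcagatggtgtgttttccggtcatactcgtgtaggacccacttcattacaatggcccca
BEH2: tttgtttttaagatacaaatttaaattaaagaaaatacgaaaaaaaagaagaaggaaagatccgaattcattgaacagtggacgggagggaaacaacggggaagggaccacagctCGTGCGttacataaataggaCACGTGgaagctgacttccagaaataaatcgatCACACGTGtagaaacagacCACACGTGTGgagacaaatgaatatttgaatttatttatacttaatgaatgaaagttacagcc
BEH4: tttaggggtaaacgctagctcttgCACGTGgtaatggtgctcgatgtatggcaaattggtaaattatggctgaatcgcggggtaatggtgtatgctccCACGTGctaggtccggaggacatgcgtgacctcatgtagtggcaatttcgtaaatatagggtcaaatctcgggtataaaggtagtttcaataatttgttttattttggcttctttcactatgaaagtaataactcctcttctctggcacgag

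The BEH2 window held 3 G-boxes, 3 CGTGTG and 1 CGTGCG, and several of these overlap, so that the closest pair of G-boxes shares its letters with response elements. The BEH4 window held 2 G-boxes, which begin 226 and 152 bases before the gene start, and no response element. The BZR1 window held 1 G-box and 2 CGTGTG. The BES1 window held neither motif, and its only matches to the looser E-box (CANNTG, which includes the G-box) were 2 others. A G-box occurs in 6.49% of the 27431 gene-start windows of this length in the annotation, an E-box in 55.3%, CGTGTG in 5.36% and CGTGCG in 1.56%. Windows of BEH1 and BEH3 held no G-box or response element, and those of BIN2, BSU1, BSL1 and BSK1 held no E-box, G-box or response element. CTTNNNNNNNAAG, the site known for SOG1, the transcription factor of the plant DNA damage response, was added to the search after the values were seen and occurred in 0 of the 10 windows, against 9.70% of all windows. These matches describe letters in a window and do not show binding.

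Library totals lay between 32668516 and 38276389 counts, except for replicate 3 of WT mock with 70212858 and replicate 3 of WT zeocin with 73481046. The first principal component (50.4% of the variance) separated zeocin from mock. On the second (15.3%), replicate 3 of WT mock, of WT zeocin and of brl3-2 mock lay farthest on 1 side (-41.8, -24.1 and -20.6). Replicate 3 of brl3-2 zeocin lay on the other side (14.4). Results that turn on the libraries numbered 3 are also given without all 4 of them, a set formed by number and not by position. The summed level of 5 root tip markers (WOX5, PLT1, PLT2, SHR and SCR) was 61.4 to 77.2 CPM (the TMM-scaled share of a library's counts) and none was at 0 in any library. The summed level of 8 shoot photosynthesis markers was 20.4 to 47.0 CPM in 11 libraries, with 1 or 2 of the 8 at 0, and 127 CPM in brl3-2 mock replicate 2, with 0 of them at 0. In bulk tissue, fewer cells of a type and less RNA per cell cannot be told apart. BRL3 transcript checked the genotype labels, at 10.9 CPM in WT mock against 1.00 CPM in brl3-2 mock.

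All 10 genes passed the filter on low counts, and their levels spanned 3 orders of magnitude per length. Levels are compared between genes only as CPM per kilobase of annotated exon, averaged over the 12 libraries (± SD, n = 12). BEH2 was highest at 125 ± 11.4, followed by BIN2 at 78.2 ± 5.02 and BSK1 at 41.7 ± 1.82. The ranges of these 3 genes did not overlap each other or that of any other gene. A middle set followed, with BEH4 at 23.2 ± 2.16, BSL1 at 22.8 ± 1.56, BZR1 at 19.8 ± 1.74 and BES1 at 17.4 ± 2.14 CPM per kilobase. Neighbours in this set overlapped, and BEH4 was above BSL1 in only 5 of 12 libraries. BEH3 stood at 2.34 ± 0.248, BEH1 at 0.385 ± 0.0730 and BSU1 at 0.0760 ± 0.0288 CPM per kilobase. With the length of the longest transcript in place of all exons, BIN2 came to 107 and BZR1 to 23.0 CPM per kilobase, and BZR1 and BSL1 changed places.

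**Figure D1:**
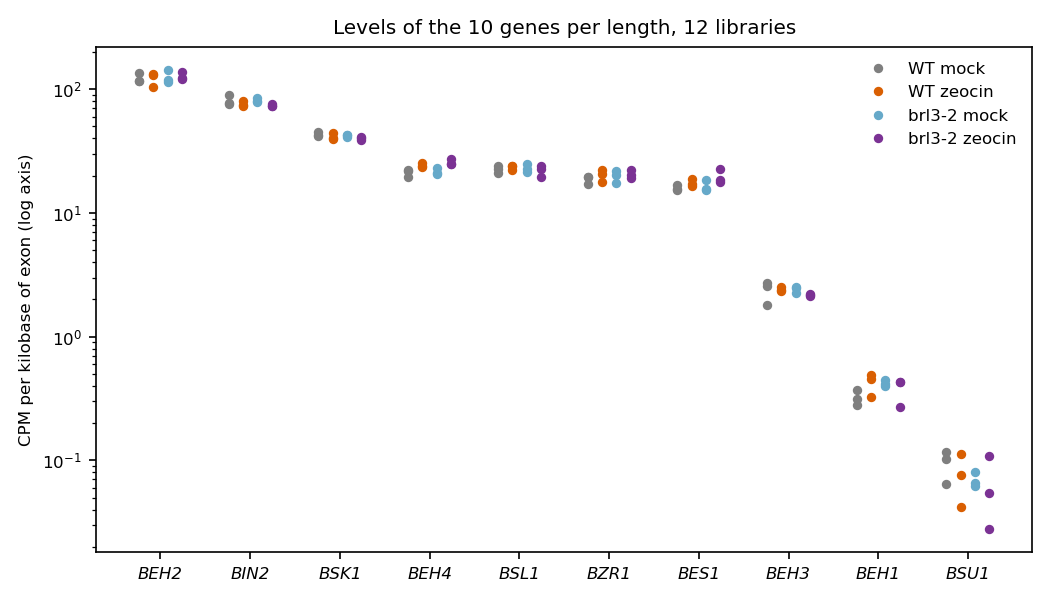
Level of each gene in each of the 12 libraries, as CPM per kilobase of exon on a log axis, with genes in order of their mean and points coloured by group. BEH2 lies at 105 to 143, BEH4, BSL1, BZR1 and BES1 share the band from 15.3 to 27.1, and BSU1 lies at 0.0276 to 0.117.

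Within the BZR family, BEH2 supplied a median of 66.2% of the summed per-kilobase level, with a range of 63.1% to 69.6% over the 12 libraries. BEH4 supplied 12.5%, BZR1 10.5% and BES1 9.25%, all as medians. BZR1 and BES1, the members through which the family is best known, thus each gave a smaller share than BEH2 in all 12 libraries. BEH3 gave 1.23% and BEH1 0.201%.

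BEH4 (AT1G78700), on chromosome 1 (29599349 to 29601682, plus strand), was the 1 gene of the 10 whose level differed between treatments past the threshold. In WT it stood at 31.9, 35.5 and 36.4 CPM in the 3 mock libraries and at 38.2, 38.9 and 41.0 CPM in the 3 zeocin libraries. In brl3-2 it stood at 33.7, 34.3 and 37.8 CPM in mock and at 40.3, 40.6 and 44.1 CPM in zeocin. All 6 zeocin libraries were above all 6 mock libraries. Treatments without overlap were found in 7.54% of the 19437 genes tested over both genotypes, in 16.2% in WT alone and in 23.6% in brl3-2 alone. Averaged over both genotypes, BEH4 rose 1.16-fold with zeocin (log2 change 0.21 ± 0.05 SE, 95% interval 0.10 to 0.32, adjusted p = 0.018 by edgeR's quasi-likelihood test). The background for this comparison was high, with 10.2% of all genes tested called at an adjusted p under 0.05 and 7.2% called higher, so 1 of the 10 genes called is close to that share.

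Within a single genotype BEH4 did not pass the threshold. Its log2 change was 0.19 ± 0.07 in WT (interval 0.03 to 0.34, adjusted p = 0.25) and 0.24 ± 0.07 in brl3-2 (interval 0.08 to 0.40, adjusted p = 0.089), both by edgeR. The difference between the genotypes' responses was 0.06 ± 0.10 (interval -0.17 to 0.28), so no difference was detected and the interval allows one of up to 0.28. Without brl3-2 mock replicate 1 the averaged change was 0.20 (adjusted p = 0.064), and without brl3-2 mock replicate 2, the library with the most photosynthesis transcripts, it was 0.21 (adjusted p = 0.056). Without all 4 libraries numbered 3, an alternative chosen after seeing the data, the averaged change was 0.22 (adjusted p = 0.0088 by edgeR). The change in brl3-2 was then 0.25 (adjusted p = 0.040), past the threshold. In that setting calls over all genes also rose, from 1990 to 4705 in the average and from 1045 to 1974 in brl3-2. Of the 5 root tip markers 2 were called lower with zeocin over both genotypes, beside 3.04% of all genes. Estimates of all 5 were negative, as were 10150 of the 19437 over all genes. The 2 were WOX5 (log2 change -0.96 ± 0.24) and SHR (-0.24 ± 0.06), with adjusted p = 0.023 and 0.028 by edgeR. These calls ended when any 1 of 6 and of 7 libraries, respectively, was left out. The part of these markers in the BEH4 difference was not tested. BEH4 shares 283 exon bases with AT1G78710 on the same strand, a gene with 0 to 3 counts per library.

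BES1 (AT1G19350) lies on chromosome 1 (6688463 to 6691216, plus strand) and encodes the close partner of BZR1 in the pathway. In WT its level was 38.0, 37.3 and 40.7 CPM in mock and 41.4, 40.5 and 45.6 CPM in zeocin. In brl3-2 it was 37.9, 37.6 and 44.8 CPM in mock and 45.2, 43.3 and 55.7 CPM in zeocin, the last being the highest value of the 12. The treatments overlapped in each genotype, narrowly, through the libraries numbered 3 of the mock groups. The averaged log2 change was 0.20 ± 0.07 (interval 0.04 to 0.36, adjusted p = 0.12 by edgeR), and it did not pass. In brl3-2 alone it was 0.26 ± 0.10 (interval 0.04 to 0.49, adjusted p = 0.22) and in WT 0.14 ± 0.10 (interval -0.09 to 0.36, adjusted p = 0.68). Without the 4 libraries numbered 3, an omission chosen after seeing the data, the averaged change was 0.18 (adjusted p = 0.010 by edgeR). The change in brl3-2 was then 0.23 (adjusted p = 0.025), and both passed the threshold. In that setting calls over all genes also rose, from 1990 to 4705 in the average and from 1045 to 1974 in brl3-2. Without both WT libraries numbered 3 alone the averaged change stayed short of the threshold (0.19, adjusted p = 0.16). The change in brl3-2 leaned on 1 library, since without brl3-2 zeocin replicate 3 it was 0.14 (adjusted p = 0.58), and that in WT was 0.08 (adjusted p = 0.86) without WT zeocin replicate 3.

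Reads in BES1 need a caution, because 33.6% of its exon bases lie opposite exons of AT1G19360 and whether strand was used in counting is not given in the sources used here. The library kit marked strand, per the labels. AT1G19360 had 52.7 to 68.6 CPM, and its averaged change with zeocin was 0.00 ± 0.07 on the log2 scale. For BZR1 the opposite-strand share was 26.1%, from exons of AT1G75090 and AT1G09523. AT1G75090 had 0.572 to 1.42 CPM, and its averaged change with zeocin was 0.61 ± 0.19 (adjusted p = 0.063 by edgeR). The level of AT1G09523 is not given here. BZR1 and BES1 are also similar in sequence, but only 22 of 1777 and 22 of 2339 exonic stretches of 50 bases, respectively, occurred elsewhere in the genome. The other 8 genes had 0 such stretches.

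BZR1 (AT1G75080), on chromosome 1 (28185504 to 28188075, plus strand), did not separate by treatment. Its level was 33.2, 37.2 and 37.7 CPM in WT mock and 39.6, 34.2 and 42.7 CPM in WT zeocin. It was 38.7, 33.9 and 42.0 CPM in brl3-2 mock and 36.9, 39.0 and 42.9 CPM in brl3-2 zeocin. The groups overlapped throughout, and the averaged change with zeocin was 0.08 ± 0.07 (interval -0.08 to 0.24, adjusted p = 0.61 by edgeR).

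BEH2 (AT4G36780), on chromosome 4 (17332269 to 17334355, minus strand), was the most abundant of the family and ranged from 174 CPM in WT zeocin replicate 2 to 238 CPM in brl3-2 mock replicate 3. Its averaged change was 0.01 ± 0.08 (interval -0.17 to 0.19). BEH3 (AT4G18890), on chromosome 4 (10352386 to 10355555, plus strand), stood at 5.28, 5.56 and 3.68 CPM in WT mock and at 5.15, 4.92 and 4.77 CPM in WT zeocin. In brl3-2 it stood at 5.14, 5.04 and 4.60 CPM in mock and at 4.46, 4.33 and 4.49 CPM in zeocin. The 3 brl3-2 zeocin values lay below the brl3-2 mock and the WT zeocin values, by small steps. Such separation was found in 23.6% of all genes tested against brl3-2 mock and in 7.52% against WT zeocin. Neither difference passed the test (log2 change -0.15 ± 0.15 against mock and -0.16 ± 0.15 against WT). WT mock replicate 3 held the lowest BEH3 level of all, and without it the change with zeocin in WT went from 0.04 to -0.13.

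BEH1 (AT3G50750), on chromosome 3 (18861749 to 18863397, minus strand), was read only 14 to 35 times per library. Its level was 0.488, 0.578 and 0.437 CPM in WT mock, below the 0.698, 0.630 and 0.653 CPM of brl3-2 mock in every library. The log2 change was 0.41 ± 0.27 (interval -0.17 to 0.99, adjusted p = 1 by edgeR), and groups without overlap in this comparison made up 7.72% of all genes tested. WT zeocin libraries held 0.766, 0.711 and 0.504 CPM and brl3-2 zeocin libraries 0.672, 0.424 and 0.675 CPM, which overlapped both mock groups. At this depth a change of the size seen in BEH4 was not detectable for BEH1.

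**Figure D2:**
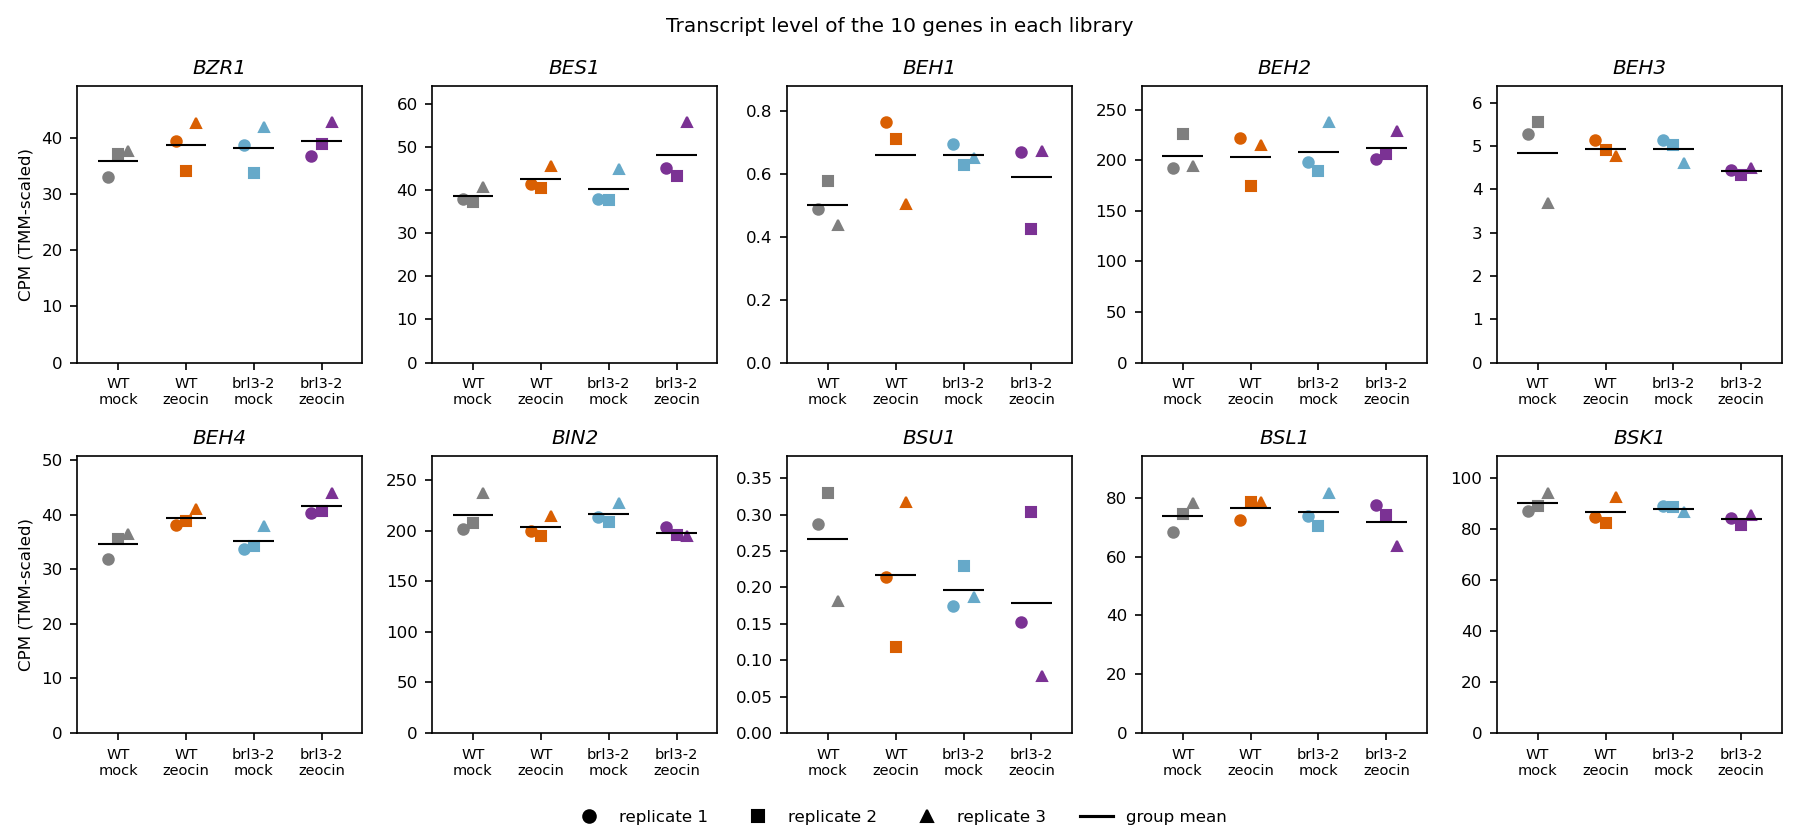
Level of each of the 10 genes in each library (CPM, TMM-scaled, axes from 0), with marker shape for the replicate and a line for the group mean. BEH4 is the 1 panel in which all 6 zeocin points lie above all 6 mock points. BIN2 and BSK1 means lie slightly lower in zeocin, with overlap between treatments in WT and none in brl3-2.

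BIN2 (AT4G18710) lies on chromosome 4 (10296138 to 10301228, plus strand), and its level ran opposite to that of BEH4 without passing the test. In WT it was 202, 207 and 238 CPM in mock and 200.2, 195 and 215 CPM in zeocin. In brl3-2 it was 214, 208 and 227 CPM in mock and 204, 195 and 195 CPM in zeocin, with no overlap in that genotype. Such separation in brl3-2 was found in 23.6% of all genes tested. The averaged log2 change was -0.11 ± 0.05 (interval -0.22 to 0.01, adjusted p = 0.27 by edgeR).

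Because counts of 2 genes in the same library do not depend on how libraries are scaled, BEH4 and BES1 were also set against BIN2 within each library, a choice made after their values were seen and given without a test. The ratio of BEH4 to BIN2 counts was 0.153 to 0.171 in the 6 mock libraries and 0.191 to 0.227 in the 6 zeocin libraries. The group means were 0.161 ± 0.00925 in WT mock, 0.194 ± 0.00519 in WT zeocin, 0.163 ± 0.00462 in brl3-2 mock and 0.211 ± 0.0147 in brl3-2 zeocin (SD, n = 3). The ratio of BES1 to BIN2 counts was 0.171 to 0.197 in mock and 0.207 to 0.286 in zeocin. Neither ratio overlapped between treatments, although BES1 alone and BIN2 alone did. BIN2 had been picked because its level ran the other way, and of all other genes tested 10.2% also separated the treatments as a ratio to BIN2. Of the other 9 genes described, 2 did, BEH4 and BES1. Against BZR1 the treatments overlapped, with BEH4 to BZR1 at 0.869 to 1.01 in mock and 0.959 to 1.14 in zeocin and BES1 to BZR1 at 0.978 to 1.145 and 1.04 to 1.30. The ratio of BES1 to BEH4 counts overlapped, at 1.05 to 1.19 in mock and 1.04 to 1.26 in zeocin.

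**Figure D3:**
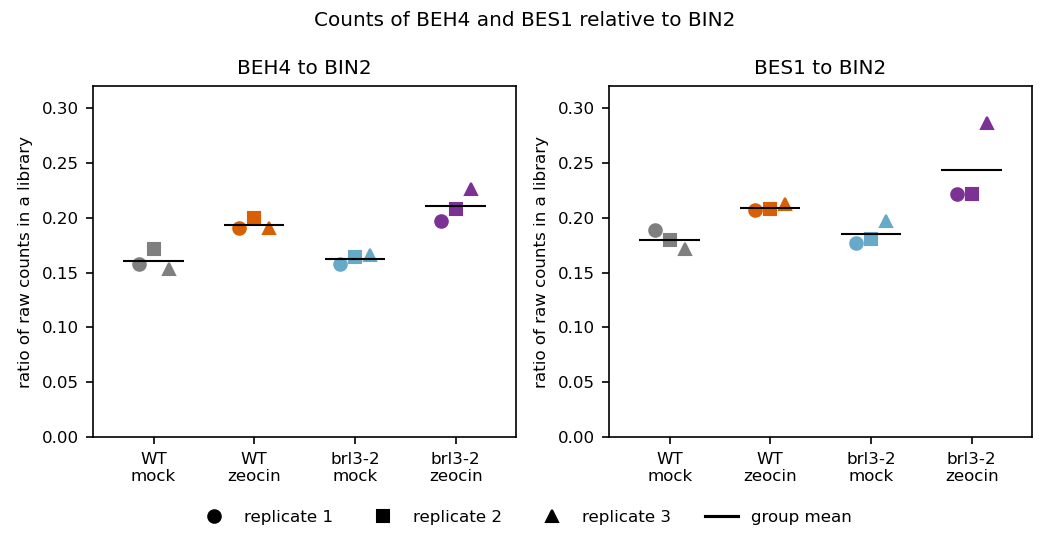
Ratio of raw counts of BEH4 to BIN2 (left) and of BES1 to BIN2 (right) in each library, by group, with a line for the group mean. Mock libraries lie at 0.153 to 0.171 and zeocin libraries at 0.191 to 0.227 on the left, and brl3-2 zeocin replicate 3 is the highest point on the right at 0.286.

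Among the 10 genes, those that act between receptor and BIN2 (BSK1, BSL1 and BSU1) showed no change past the threshold. BSK1 (AT4G35230), on chromosome 4 (16755092 to 16758358, minus strand), had the smallest SD relative to its mean of the 10 and stood at 87.0, 89.0 and 94.2 CPM in WT mock and 84.6, 82.4 and 92.7 CPM in WT zeocin. In brl3-2 it was 88.9, 88.5 and 86.5 CPM in mock and 84.3, 81.7 and 85.4 CPM in zeocin. The treatments again did not overlap in that genotype, as for 23.6% of all genes tested. Its averaged change was -0.06 ± 0.04 (interval -0.15 to 0.03, adjusted p = 0.43 by edgeR).

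BSL1 (AT4G03080), on chromosome 4 (1359655 to 1365498, minus strand), ranged from 63.6 CPM in brl3-2 zeocin replicate 3 to 81.8 CPM in brl3-2 mock replicate 3, and its averaged change was -0.01 ± 0.06 (interval -0.14 to 0.13). BSU1 (AT1G03445), which gave the phosphatase family its name, lies on chromosome 1 (854410 to 859701, minus strand) and was read only 3 to 22 times per library. Summed over 3 libraries, its raw counts were 34 in WT mock, 33 in WT zeocin, 20 in brl3-2 mock and 18 in brl3-2 zeocin. These sums are not scaled for depth, and replicate 3 of both WT groups had the largest totals. The scaled group means were 0.266, 0.217, 0.197 and 0.178 CPM in the same order. Its averaged change with zeocin was -0.16 ± 0.35, with an interval from -0.94 to 0.61 that allows a large change either way. The other phosphatase genes of the family were read at higher counts, BSL2 at 105 to 115 CPM and BSL3 at 45.7 to 55.6 CPM.

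Taking the 10 genes as a list, 0 of 10 were called with zeocin in WT, where 4.98% of all genes were called, and 0 of 10 in brl3-2, where the share was 5.38%. At an unadjusted p under 0.05 there was 1 gene in WT (BEH4), beside 13.7% of all genes, and there were 2 in brl3-2 (BEH4 and BES1), beside 15.2%. In the average over genotypes there were 2 (BEH4 and BES1), beside 21.7%. DESeq2 called 0 of the 10 in each genotype and 1 in the average. The median log2 change of the list was 0.05 in WT and -0.07 in brl3-2, beside -0.01 and 0.00 for all genes tested. The estimates of the 10 genes ran from -0.15 to 0.38 in WT and from -0.17 to 0.26 in brl3-2. For 8 of the 10 genes the 95% interval lay within 0.5 of 0 on the log2 scale in each genotype, which was so for 59.1% of all genes in WT and 57.9% in brl3-2. The exceptions were BEH1 and BSU1, the genes with the fewest reads.

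**Figure D4:**
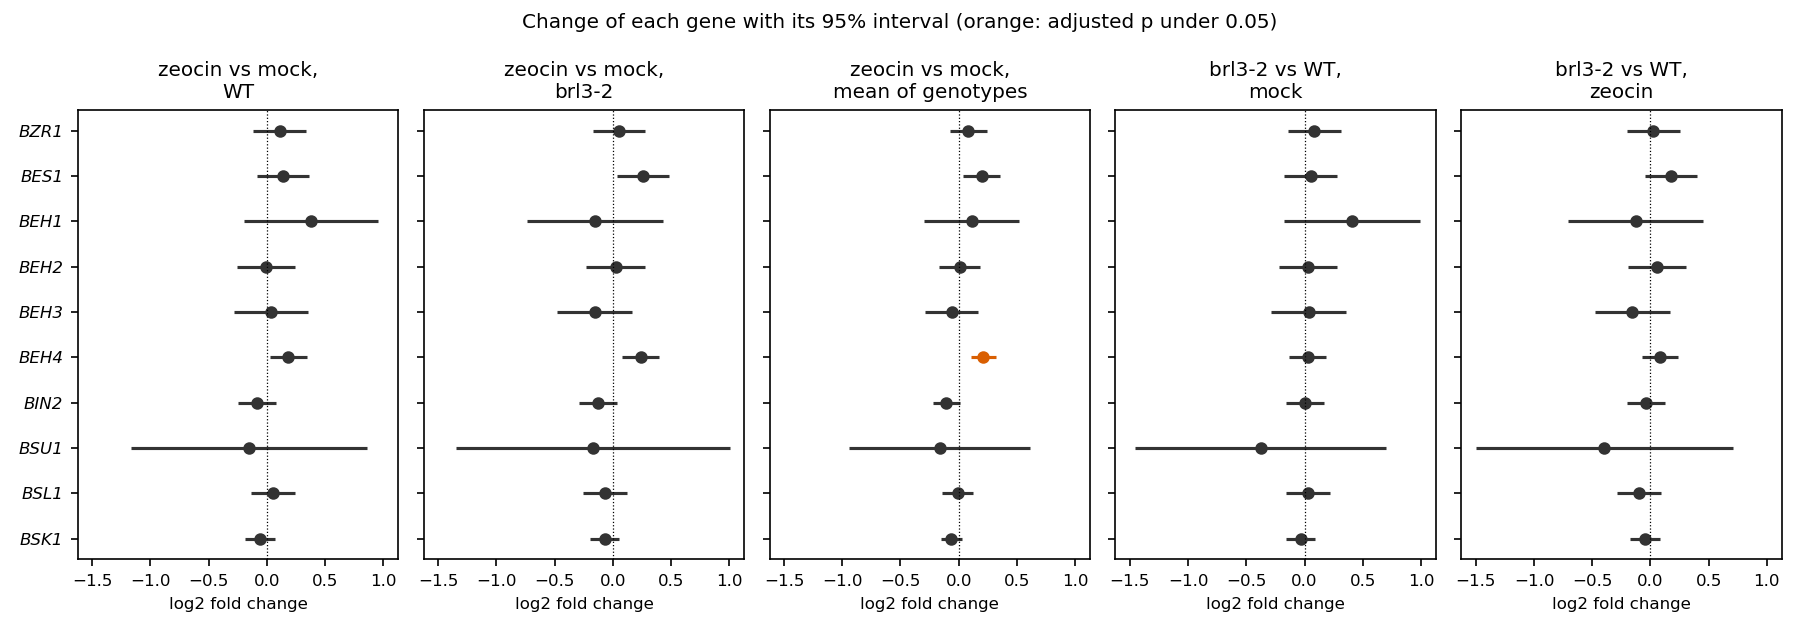
Log2 fold change of each gene (point) with its 95% interval (line) in 5 comparisons, from the fit to all 12 libraries. BEH4 in the mean of both genotypes is the 1 orange point, at 0.21 with an interval from 0.10 to 0.32, and BEH1 and BSU1 have the widest lines.

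Loss of BRL3 transcript went with no called change in any of the 10 genes. In mock, 0 of 10 were called between brl3-2 and WT, against a background of 0.0257% of genes, and under zeocin 0 of 10, against 0.0412%. Averaged over treatments it was again 0 of 10, against 0.0566%. At an unadjusted p under 0.05 the count was also 0 in each of these comparisons, beside 3.97%, 2.12% and 5.24% of all genes in that order, and DESeq2 called 0. BZR1 differed by 0.06 ± 0.07 (interval -0.10 to 0.21), BES1 by 0.11 ± 0.07 (interval -0.04 to 0.27) and BEH4 by 0.05 ± 0.05 (interval -0.06 to 0.16) on the log2 scale in the average. BIN2 differed by -0.02 ± 0.05 (interval -0.13 to 0.10). In mock and under zeocin alike the interval lay within 0.5 of 0 for 8 of the 10 genes, again without BEH1 and BSU1, which was so for 64.9% and 66.3% of all genes. In the average it held for 8 of the 10, beside 77.2%.

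The difference between the zeocin responses of the genotypes was called for 0 of the 10 genes and for 0% of all genes tested, with 0 of 10 and 194 of 19437 (0.998%) at an unadjusted p under 0.05. DESeq2 also called 0 of the 10. The edgeR estimates of this difference ran from -0.54 ± 0.37 in BEH1 to 0.12 ± 0.14 in BES1. For 7 of the 10 genes the edgeR interval lay within 0.5 of 0, beside 50.9% of all genes. The exceptions were BEH1, BSU1 and BEH3. For BEH3 the SE of 0.21 was larger than the 0.12 that counting error alone would give.

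The other genes of the pathway were read from lists whose members, like the 10 genes, were chosen with earlier results of these data known, and counts refer to zeocin against mock averaged over both genotypes. Of all genes tested, 7.2% were called higher and 3.04% lower in this comparison. Of 8 other GSK3-like kinases tested 0 were called (median log2 change -0.05, range -0.13 to 0.13). At an unadjusted p under 0.05 there were 2 of the 8, beside 21.7% of all genes tested. The phosphatase genes BSL2 and BSL3 gave 0 calls and 0 at an unadjusted p under 0.05. Of 10 other BSK and CDG1 kinases 1 rose, BSK2, a relative of BSK1, from 11.1 to 14.4 CPM (log2 change 0.38 ± 0.09, adjusted p = 0.022 by edgeR), a call that ended when any 1 of 6 of the 12 libraries was left out. The median of all genes tested was -0.01.

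Of 9 upstream genes, which encode receptors, co-receptors and the inhibitor BKI1, the receptor genes BRI1 and BRL3 rose and BKI1 fell. Over all genes tested 7.2% were called higher and 3.04% lower. BRI1, the main brassinosteroid receptor, was at 230.4, 247 and 219 CPM in WT mock and at 276, 271 and 273 CPM in WT zeocin. In brl3-2 it was at 254, 240 and 256 CPM in mock and at 295, 278 and 296 CPM in zeocin. All zeocin libraries were above all mock libraries, and the averaged change was 0.23 ± 0.04 (adjusted p = 0.0056). BKI1, which inhibits BRI1, fell from 4.62 to 3.36 CPM (log2 change -0.45 ± 0.11, adjusted p = 0.016), with no overlap between treatments, though without brl3-2 zeocin replicate 2 the adjusted p was 0.050. Such separation of the treatments, seen for BRI1 and BKI1, was found in 7.54% of all genes tested. BRL3 rose in WT, where it is intact, from 10.9 to 28.1 CPM (log2 change 1.36 ± 0.18, adjusted p = 0.00052).

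For the next 2 lists the share of all genes called lower in the average was again 3.04%. Of 10 regulators of BIN2 or of BZR proteins 1 fell, MAX2, an F-box protein of strigolactone signalling reported to bind BES1 (log2 change -0.20 ± 0.05, adjusted p = 0.033). That call ended when any 1 of 8 of the 12 libraries was left out. Of 10 partners of BZR factors 1 fell, BIM1, a helix-loop-helix protein that binds DNA with BES1 (-0.22 ± 0.04, adjusted p = 0.0040). BIM1 was at 138, 123 and 128 CPM in WT mock and at 124, 115 and 120.0 CPM in WT zeocin. In brl3-2 it went from 147, 154 and 145 CPM to 119, 118 and 117 CPM. That change of -0.33 ± 0.06 was called (adjusted p = 0.0046 by edgeR), in a comparison with 1.05% of all genes called lower. In WT the change was -0.11 ± 0.06 (adjusted p = 0.45 by edgeR). The difference between these responses was -0.22 ± 0.08 and did not pass (adjusted p = 1 by edgeR).

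**Figure D5:**
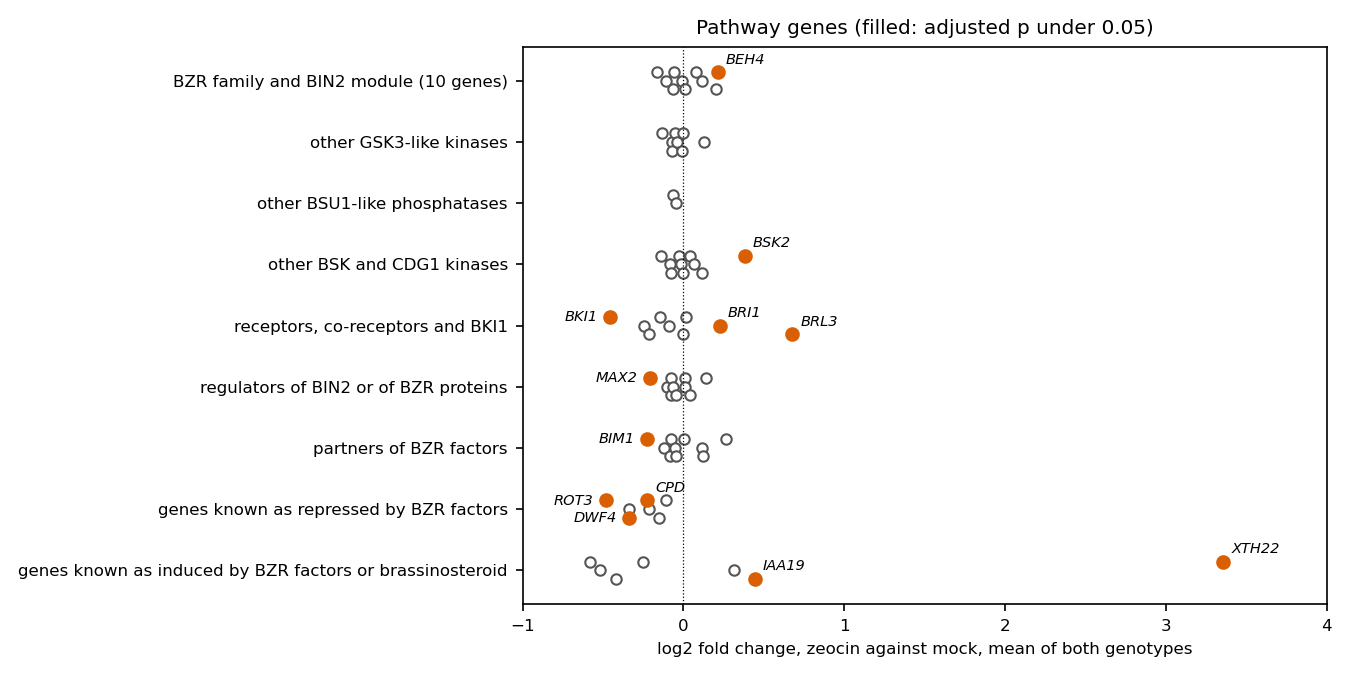
Log2 change with zeocin, averaged over both genotypes, of each tested gene of the pathway by list, with filled named points at an adjusted p under 0.05. Of the 10 genes described only BEH4 is filled (0.21), the genes known as repressed by BZR factors all lie left of 0, and XTH22 lies far right at 3.36.

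Known target genes moved in both directions. Of 7 genes known as repressed by BZR factors 3 fell and 0 rose, beside 3.04% of all genes called lower, and the estimates of all 7 were negative (median -0.23, range -0.48 to -0.11), as were 10150 of the 19437 over all genes. The 3 were genes of brassinosteroid synthesis. ROT3 fell from 18.5 to 13.2 CPM (-0.48 ± 0.07, adjusted p = 0.00082), CPD from 101 to 86.8 CPM (-0.23 ± 0.05, adjusted p = 0.021) and DWF4 from 14.9 to 11.8 CPM (-0.34 ± 0.09, adjusted p = 0.036), all by edgeR. ROT3 was also called in each genotype alone, at -0.41 ± 0.10 in WT (adjusted p = 0.037) and -0.55 ± 0.10 in brl3-2 (adjusted p = 0.0069). Leaving out a single library ended the call of DWF4 for 9 of the 12 libraries, of CPD for 7 and of ROT3 in WT for 5, with adjusted p up to 0.098, 0.070 and 0.17. Over the 12 omissions the change was -0.41 to -0.27 for DWF4, -0.27 to -0.20 for CPD and -0.48 to -0.33 for ROT3 in WT. The call of ROT3 in WT also ended in the fit to the compared groups only (adjusted p = 0.16) and without both WT libraries numbered 3 (adjusted p = 0.052).

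Of 7 tested genes known as induced by BZR factors or by the hormone 2 rose and 0 fell, beside 7.2% of all genes called higher, while the median was -0.25. XTH22, a cell wall enzyme gene that touch also induces, rose from 15.7 to 161 CPM (3.36 ± 0.19, adjusted p = 1.5e-07). IAA19, an auxin response repressor, rose from 3.30 to 4.48 CPM (0.44 ± 0.09, adjusted p = 0.0081). Another 4 genes of this list had too few reads to be tested. Between genotypes 0 of the 7 tested genes of either list were called by edgeR, in mock, under zeocin or on average. At an unadjusted p under 0.05 there were 0 repressed genes and 1 induced gene in mock, beside 3.97% of all genes. Under zeocin there were 0 of either list, beside 2.12%. On average there were 1 repressed gene and 2 induced genes, beside 5.24%.

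For likeness of pattern, a gene was eligible only if its 4 group means spanned more than 0.5 on the log2 scale, and of the 10 only BSU1 did (0.56), on 3 to 22 counts. The genes nearest to it in centred log2 CPM over the 12 libraries were AT5G66700, AT1G21510 and AT2G22790, at root mean square differences of 0.26, 0.29 and 0.30. For the other 9 genes the group means lay too close together for a nearest pattern to be named.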

How the data were processed

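The authors deposited raw gene counts for the 12 libraries in a single table. The submitters' processing notes name HISAT2 2.1 and featureCounts 1.6.2, after FastQC 0.11.2 and Trimmomatic 0.38, as well as edgeR 3.34.1 and the build TAIR10. How strand and the 2 runs of a library were handled is not given in the sources used here. The 1 row without a gene name (at most 0.00393% of a library) was left out.

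Counts were analysed with edgeR 4.0.16 in R 4.3.3. Genes were kept by filterByExpr (minimum count 10, minimum total 15), which left 19437, with TMM scaling. The quasi-likelihood fit used all 12 libraries at once with a mean for each group, and 7 contrasts were tested, with two-sided p-values adjusted by Benjamini-Hochberg over all genes tested and a threshold of 0.05. Standard errors and 95% intervals of log2 changes were derived from the test statistic and its degrees of freedom. CPM values are TMM-scaled, and lengths, coordinates and upstream windows come from the TAIR10.1 annotation of RefSeq. The fit was tested on simulated data. Each library was kept as a replicate, since counts within a group differed beyond sampling noise (7.81 to 99.6 chi-square units per degree of freedom).

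The 10 genes, the pathway lists, the tests and the alternatives were chosen with earlier results of these data known. All 10 genes are named. In other lists up to 3 members per comparison are named, those with the smallest adjusted p among those called, and 4 of 99 list entries were left out because the annotation gives their locus no matching name. Alternatives were DESeq2 1.42.0, its size factors, no filter, a replicate block, fits to the compared groups only, longest transcript lengths, and leaving out single libraries or those numbered 3.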

Additional observations from a re-analysis of the deposited data

How the results depend on the processing

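Of the counts of called genes among the 10, those for zeocin in WT, for each comparison of genotypes and for the difference between the responses were 0 under every alternative run. For zeocin in brl3-2 the count went from 0 to 2 with the replicate block (BES1, adjusted p = 0.031, and BEH4, adjusted p = 0.024, by edgeR) and to 2 without the 4 libraries numbered 3, an alternative chosen after seeing the data. For zeocin averaged over genotypes it went from 1 to 2 with the replicate block (BES1 added, adjusted p = 0.013) and to 2 without those 4 libraries. With single libraries left out the range was 0 to 1, with 0 without brl3-2 mock replicate 1 or 2. The change of BEH4 in that comparison was 0.19 to 0.24 on the log2 scale over all 18 alternatives. The labels do not say that a replicate number marks a shared batch, and the numbers were not taken as pairing the libraries, since only 9 of 18 same-numbered pairs correlated above 0.1 in their deviations from group means (median 0.10, range -0.32 to 0.59). Of differently numbered pairs 9 of 36 did (median -0.07). Deviations from a group's own mean sum to 0, so the 2 sets of pairs are tied and do not settle whether the numbers pair the libraries. As a hint from the data that the numbers may still share something, 7 of 12 libraries were closest to their own number. The cause of these moves was not tested. No called value changed sign under the alternatives run.

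Over all genes, counts of calls differed by more than 1.5 times in these cases. For zeocin in WT 967 became 566 in the fit to the compared groups only, which uses fewer samples, and 2185 without the 4 libraries numbered 3. Without those 4 libraries 1045 became 1974 in brl3-2 and 1990 became 4705 in the average. Between genotypes in mock 5 became 2 in the fit to the compared groups and without those 4 libraries, and 12 with DESeq2. Under zeocin 8 became 5 in the fit to the compared groups, 4 to 7 without 1 library, 4 without both WT libraries numbered 3 and 2 without all 4. On average 11 became 17 with the replicate block, 7 without those 4 libraries and 28 with DESeq2. Single-library omissions that ended calls of pathway genes are given beside those genes, and for BRL3 in the average, 0.67 with adjusted p = 0.017, the value without brl3-2 zeocin replicate 2 was 0.65 (0.053). Depth limits BSU1 (3 to 22 counts) and BEH1 (14 to 35 counts), for which only large changes were detectable.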
